A study of Mus musculus with 6 samples.

Results

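The Ly6 genes *Ly6a*, *Ly6c1*, *Ly6c2*, *Ly6e*, *Ly6f*, *Ly6i* and *Ly6k* are 7 of the 78298 genes in the deposited table, and they were chosen by name, with *Ly6a* noted for its large rise in these same samples. The difference between the groups was therefore part of their choice. Their values are given as a description with no p-value, and a count of members past a threshold stands only beside the share over all genes. RENCA is a mouse renal adenocarcinoma cell line. Both groups were transduced with a lentivirus for 48 h and kept under puromycin (2 μg/mL) over the next 14 days. In 3 samples (oe-AQP1) the vector carried the coding sequence of mouse *Aqp1*, a water channel, under the ubiquitin C promoter, and in 3 samples (oe-NC) it was empty. Both groups are selected populations of 1 line, there was no untransduced group, and all samples carry the same batch label. RNA was sequenced to compare expression under AQP1 overexpression with the control. The labels call the samples biological replicates but do not say whether they were grown separately, so the error here is the spread between these samples, which may be technical.

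Ly6 proteins are small cell surface proteins built on a single folded domain held together by disulfide bonds, the fold they share with the urokinase receptor. Most are tied to the outer membrane by a glycosylphosphatidylinositol (GPI) lipid anchor and have no part inside the cell. In mice many of their genes lie side by side on 1 chromosome, and several are known to respond to interferon. *Ly6a* encodes Sca-1, the antigen used to sort mouse stem and progenitor cells. *Ly6e* encodes a protein known for effects on virus entry and as the receptor of the placental fusion protein syncytin-A. *Ly6c1* and *Ly6c2* encode the Ly6C antigen, known from monocytes, lymphocytes and endothelium, and *Ly6k* is known for its role in sperm.

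All 7 members carried the same domain in the deposited protein family annotation (UPAR_LY6, given to 35 genes of the table), and all lie on chromosome 15. In GENCODE M39 (GRCm39) *Ly6k* occupies chr15:74668723-74672029 (minus strand), *Ly6e* chr15:74826860-74847454 (plus), *Ly6i* chr15:74851383-74855279 (minus), *Ly6a* chr15:74863840-74869880 (minus), *Ly6c1* chr15:74915847-74920686 (minus), *Ly6c2* chr15:74980003-74988467 (minus) and *Ly6f* chr15:75140205-75148951 (plus). Their coding sequences ran from 390 bases in *Ly6e* to 462 in *Ly6k*. The closest pair was *Ly6c1* and *Ly6c2*, with 97.7% identity over the coding sequence. *Ly6a* was 86.3% identical to *Ly6i* and 84.9% to *Ly6f*, whereas *Ly6e*, at 51.7 to 54.9%, and *Ly6k*, at 51.7 to 53.2%, were the farthest from the others. This similarity bears on counting. Of the 50-base stretches in the transcripts of *Ly6c1*, 39.87% also occurred in another gene of the cluster, mostly *Ly6c2*. For *Ly6a* the share was 16.61%, most often in *Gm28068*, a non-coding gene on the opposite strand. For *Ly6i* it was 5.54%, for *Ly6f* 0.27%, and for *Ly6e* and *Ly6k* 0. The split of reads between *Ly6c1* and *Ly6c2* is uncertain for this reason. The stretches were compared on the transcript strand only, so overlap with a gene on the opposite strand was not counted. Those that *Ly6a* shared with *Gm28068* therefore do not come from the overlap of these genes. No *Ly6e* value was a whole number, although its share was 0.

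The RefSeq promoter table (GRCm38.p6) held 3 of the 7 members. The 250 bases before the first listed start of each are shown because *Ly6c1* and *Ly6c2* are the closest pair in coding sequence and *Ly6f* is the tested member with overlapping groups. The windows are chr15:75048838-75049087 (minus strand) for *Ly6c1*, chr15:75111972-75112221 (minus) for *Ly6c2* and chr15:75268171-75268420 (plus) for *Ly6f*, and capitals mark the letters TATAAA.
Ly6c1: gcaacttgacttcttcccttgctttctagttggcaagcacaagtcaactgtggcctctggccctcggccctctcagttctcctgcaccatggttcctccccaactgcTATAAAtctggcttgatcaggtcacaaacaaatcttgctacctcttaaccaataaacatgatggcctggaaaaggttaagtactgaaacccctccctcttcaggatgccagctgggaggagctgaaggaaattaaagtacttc
Ly6c2: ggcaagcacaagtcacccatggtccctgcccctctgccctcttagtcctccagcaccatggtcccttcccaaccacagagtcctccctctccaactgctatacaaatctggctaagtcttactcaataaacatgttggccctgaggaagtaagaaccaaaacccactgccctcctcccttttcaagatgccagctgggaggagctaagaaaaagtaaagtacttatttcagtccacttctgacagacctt
Ly6f: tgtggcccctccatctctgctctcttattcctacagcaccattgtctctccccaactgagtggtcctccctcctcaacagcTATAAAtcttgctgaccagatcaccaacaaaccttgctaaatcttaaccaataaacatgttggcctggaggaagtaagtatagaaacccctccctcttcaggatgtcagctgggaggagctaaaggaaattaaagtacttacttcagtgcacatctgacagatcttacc
Counted from the start, the TATAAA match began at -143 in *Ly6c1* and at -169 in *Ly6f*, and the *Ly6c2* window had none. On the given strand, 7.59% of the 32851 promoter windows of this length held TATAAA. The core of the interferon-stimulated response element (GAAA, any pair of bases, GAAA) and TTCNNNGAA, the site type bound by STAT dimers, were searched on both strands. Neither was found in these windows or in the second listed start of *Ly6c1* and *Ly6c2*, and 2.98% and 7.02% of all windows held them. Over the windows shown, *Ly6c1* and *Ly6c2* were 59.0% identical, *Ly6c1* and *Ly6f* 65.5%, and *Ly6c2* and *Ly6f* 66.4%. Gaps, also those at the ends, count as differences in these values, and the windows are placed by their listed starts. An offset between starts is thus mixed with differences in sequence, and nothing is read from the order of the pairs. *Ly6a*, *Ly6e*, *Ly6i* and *Ly6k* had no entry.

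Library totals ran from 18385714.02 to 21920898.67 expected counts, and scaling factors between samples were 0.993 to 1.006. *Aqp1* itself had expected counts of 7713, 8545 and 7838 in oe-AQP1 and 41, 25 and 45 in oe-NC, as the labels say. After a filter on low counts 15522 genes were tested, of which 32.5% passed a false discovery rate (FDR) of 0.05, 16.0% higher and 16.6% lower in oe-AQP1. Rises with a log2 fold change (log2FC) above 1 made up 4.39% of the genes tested, and falls below -1 made up 0.844%. The median log2FC over all genes was 0.002. Kidney epithelial markers were present, at a summed 841.9 to 873.6 CPM (counts scaled to library size) in oe-AQP1 and 1027.4 to 1140.7 CPM in oe-NC. Of 8 such markers 7 were tested and 4, *Lrp2* (log2FC -0.93), *Cdh16* (-0.63), *Krt8* (-0.41) and *Krt18* (-0.27), fell, and *Epcam* was at 0. Their part in the Ly6 values was not tested.

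Of the 7 members, 5 were kept by the filter. In 4 of them, *Ly6a*, *Ly6i*, *Ly6c1* and *Ly6e*, the log2FC was above 1 and the FDR threshold was passed, against 4.39% of all genes tested. In these 4, every oe-AQP1 sample also lay above every oe-NC sample. The share of all genes with groups separated in this way was not computed. Since the contrast chose these genes, nothing is read from either count. *Ly6i* was kept by the filter only through its oe-AQP1 samples. *Ly6f* showed overlapping groups, *Ly6c2* had too few counts for the test and *Ly6k* had none.

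**Figure D1:**
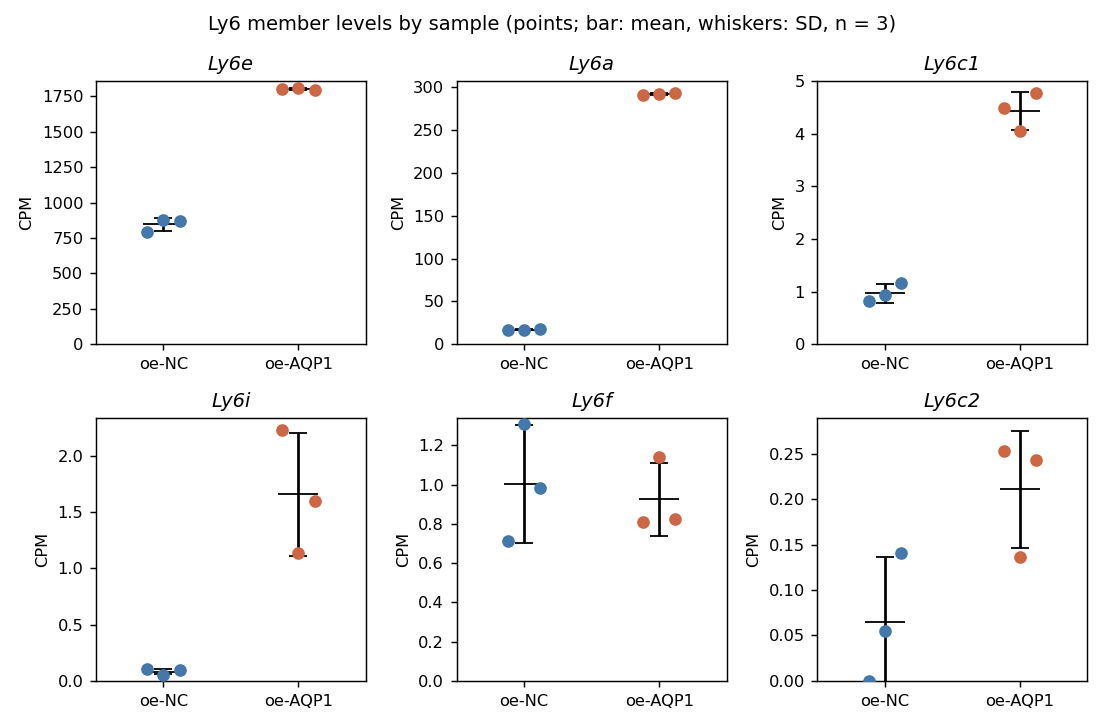
CPM of 6 Ly6 members in each sample, 1 panel per gene with its own axis from 0. Points are samples, the bar is the group mean and whiskers are the SD (n = 3, cut at 0 for *Ly6c2*). *Ly6e*, *Ly6a*, *Ly6c1* and *Ly6i* have separate groups, and *Ly6f* and *Ly6c2* have overlapping ones. *Ly6k*, at 0 in all 6 samples, is not drawn.

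*Ly6a* and *Ly6i* showed the largest log2FC of the members tested, and their order depended on the fit. That of *Ly6a* was 4.10 with limma-voom, 4.11 with edgeR and 4.11 with DESeq2, and that of *Ly6i* was 3.90, 4.19 and 4.29. *Ly6a* was the one with counts high enough to measure well in both groups. Its expected counts were 5742, 6422 and 6029 in oe-AQP1 and 325.87, 301.99 and 376 in oe-NC. Scaled for library size this was 291.9 ± 1.42 CPM (SD, n = 3) against 16.9 ± 0.621 CPM (SD, n = 3), a 17.2-fold difference in means. The groups lay far apart and the spread within each was small, with a coefficient of variation of 0.486% in oe-AQP1 and 3.67% in oe-NC. The log2FC was 4.10 (SE 0.05), and 0.309% of the genes tested had a larger one. By CPM, *Ly6a* moved from rank 8624 of the 15522 genes in oe-NC to rank 574 in oe-AQP1. It was thus a gene a little below the middle of the list in control cells and one of the upper part after AQP1 transduction.

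*Ly6i*, the member next to *Ly6a* in the cluster and the closest to it in coding sequence, was almost undetected in control cells. Its expected counts were 44, 25 and 33.12 in oe-AQP1 and 2.13, 1.01 and 2 in oe-NC. The 3 oe-NC samples held 5 rounded counts in all against 102 in oe-AQP1, a ratio of 19.6 with a 95% interval of 8.11 to 61.5 that covers counting error only. The oe-AQP1 samples varied more than those of *Ly6a*, with a coefficient of variation of 33.0%. The fitted log2FC was 3.90 (SE 0.50), a value that depends on how the fit treats counts this low. When genes needed at least 10 counts in every sample, *Ly6i* was not tested.

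*Ly6c1*, one of the genes of the Ly6C antigen, had expected counts of 89.15, 88.96 and 97.67 in oe-AQP1 and 16, 17 and 25.04 in oe-NC. The lowest oe-AQP1 sample lay well above the highest oe-NC sample. The means were 4.44 ± 0.364 CPM and 0.973 ± 0.183 CPM (SD, n = 3 each), a 4.56-fold difference, and the log2FC was 2.16 (SE 0.21). Its near copy *Ly6c2* had expected counts of 4.85, 3.04 and 5.21 in oe-AQP1 and 0, 1 and 2.96 in oe-NC. Rounded, these were 13 counts against 4, a ratio of 3.12 with a 95% interval from 0.962 to 13.1, so a difference was not detectable at this depth. Most *Ly6c1* and *Ly6c2* values were fractions, 2 of 6 being whole numbers for each gene.

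*Ly6e* was by far the most abundant member in both groups. Its expected counts were 35576.92, 39748.46 and 36894.77 in oe-AQP1 and 15611.2, 15972.29 and 18562.6 in oe-NC. All oe-AQP1 samples lay above all oe-NC samples, at 1800.5 ± 6.67 CPM against 846.7 ± 44.5 CPM (SD, n = 3 each), a 2.13-fold difference. The log2FC was 1.09 (SE 0.04), the smallest of the 4 members with separate groups, and 4.24% of the genes tested had a larger one. *Ly6e* was already at rank 90 of all genes tested by CPM in control cells and stood at rank 17 in oe-AQP1. From this high starting level its gain of 953.8 CPM made up 77.3% of the summed gain of the members, and the gain of 275 CPM in *Ly6a* made up 22.3%.

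*Ly6f* lies farthest from *Ly6a* among the members. It had counts of 16, 25 and 17 in oe-AQP1 and 14, 24 and 21 in oe-NC, all whole numbers. The groups overlapped, at 0.924 ± 0.184 and 1.00 ± 0.3 CPM (SD, n = 3 each). The log2FC was -0.08 (SE 0.29), an error too wide to exclude a small change in either direction. *Ly6k*, the sperm gene at the other end, had 0 counts in all 6 samples, where 3 counts, the most that a 0 allows, correspond to 0.137 to 0.163 CPM.

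Levels can be compared between genes after division by exon length, here as CPM per kilobase (kb) of merged exon. In oe-NC the order was *Ly6e* at 186.0, *Ly6a* at 3.64, *Ly6f* at 0.758, *Ly6c1* at 0.294, *Ly6i* at 0.0722 and *Ly6c2* at 0.0213 CPM per kb. Neighbours in this order did not overlap between samples, although the lowest *Ly6i* sample (0.0473) and the highest *Ly6c2* sample (0.0461) almost met. In oe-AQP1 *Ly6e* (395.4 ± 1.46 CPM per kb, SD) and *Ly6a* (62.8 ± 0.305, SD) again led. *Ly6i* (1.43 ± 0.472, SD) and *Ly6c1* (1.34 ± 0.11, SD) overlapped and both lay above *Ly6f* at 0.698 CPM per kb. By this length *Ly6f* stood above *Ly6c1* and *Ly6i* in control cells and below both after AQP1 transduction. By the length of the canonical transcript this order was no longer separated, since the samples of *Ly6f* (mean 1.23) overlapped those of *Ly6c1* (0.894) in oe-NC and those of *Ly6f* (1.13) overlapped those of *Ly6i* (1.43) in oe-AQP1. By that length *Ly6c1* in oe-AQP1 was at 4.08 and *Ly6i* at 1.43 CPM per kb, and in oe-NC *Ly6c2* was at 0.0778 and *Ly6i* at 0.0722.

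**Figure D2:**
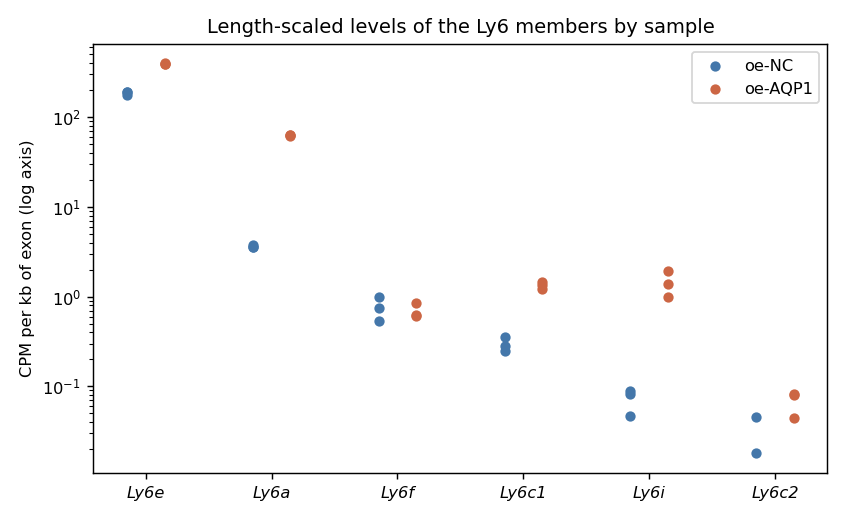
CPM per kb of merged exon of 6 Ly6 members on a log axis, 1 point per sample, oe-NC left and oe-AQP1 right for each gene. *Ly6e* and *Ly6a* lead in both groups, and by this length *Ly6f* stands above *Ly6c1* and *Ly6i* in oe-NC and below them in oe-AQP1. The oe-NC sample of *Ly6c2* at 0, and *Ly6k*, cannot be drawn on this axis.

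The unequal changes altered the make-up of the Ly6 transcripts. Summed over the 7 members there were 2099.6 ± 5.8 CPM in oe-AQP1 and 865.7 ± 45.2 CPM in oe-NC (SD, n = 3 each). *Ly6e* held 97.8% of the member reads in each of oe-NC samples 1 and 3 and 97.9% in sample 2, and 85.8, 85.8 and 85.6% in oe-AQP1. The share of *Ly6a* was 2.04, 1.85 and 1.98% in oe-NC and 13.8, 13.9 and 14.0% in oe-AQP1. Control cells therefore carried 47.9, 52.9 and 49.4 *Ly6e* counts for each *Ly6a* count, and oe-AQP1 cells 6.20, 6.19 and 6.12. This ratio is taken within a sample, so it does not depend on scaling between samples. *Ly6c1*, *Ly6i*, *Ly6f* and *Ly6c2* each held under 1% in every sample. In bulk RNA, more cells expressing a gene and more RNA per expressing cell cannot be told apart.

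The other genes of the Ly6/uPAR family that were tested showed no rise past the threshold. A list of 45 symbols matched 46 rows, of which 10 were tested, 13 had no count in any sample and 23 had at most 15.01 counts in a sample. None of the 10 rose and 4 fell (limma-voom, FDR under 0.05), against 16.0% and 16.6% of all genes, with a median log2FC of -0.17. The members, chosen with this contrast known, were left out of this list, so nothing is read from its lack of rises or its median. Of the 10, 6 had an unadjusted p under 0.05, a level at which the share of all genes was not computed. *Lynx1*, which encodes a GPI-anchored modulator of nicotinic receptors, fell by 0.32 on the log2 scale (SE 0.05, FDR = 0.000782). *Cd59a*, an inhibitor of the complement attack complex, fell by 0.38 (SE 0.07, FDR = 0.00211), and *Plaur*, the urokinase receptor, fell by 0.22 (SE 0.05, FDR = 0.00673). *Lypd3*, a GPI-anchored epithelial protein, fell by 0.50 (SE 0.16, FDR = 0.033), but missed the threshold with the DESeq2 test, without the low-count filter and when any 1 of 4 samples was left out (oe-AQP1 2 or 3, oe-NC 1 or 2). *Slurp1*, a secreted member, just missed the threshold (log2FC -0.69, FDR = 0.0506). *Lypd6b* (0.82), *Lypd1* (0.29), *Ly6d* (0.12), *Ly6g2* (-0.12) and *Ly6g6d* (0.33) did not pass either. The sign for *Lypd1* depended on the fit, with a log2FC of -0.36 with edgeR, -0.39 with DESeq2 and a mean of 0.525 CPM in oe-AQP1 against 0.694 CPM in oe-NC.

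**Figure D3:**
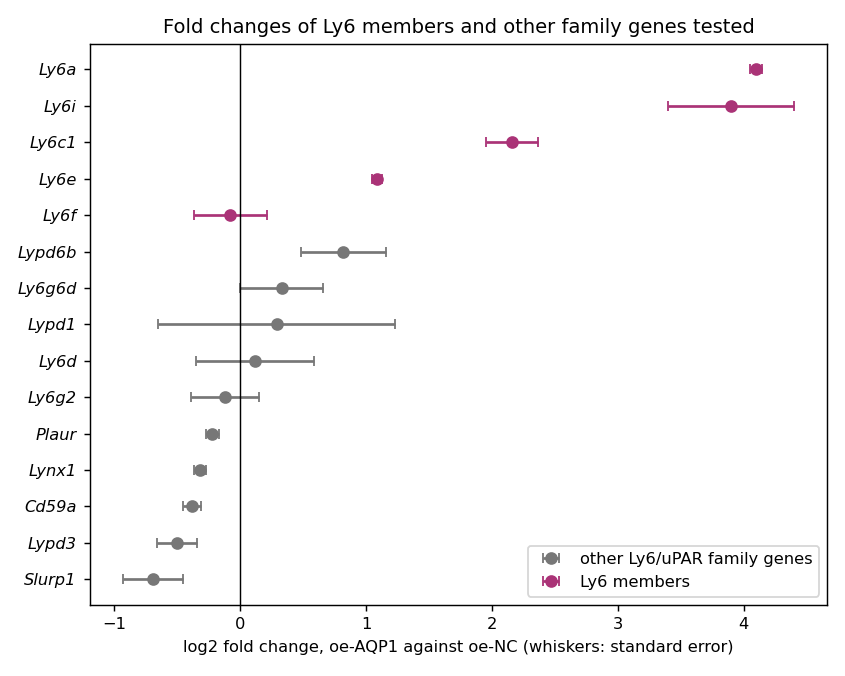
Log2FC of oe-AQP1 against oe-NC for the 5 Ly6 members tested and the 10 other Ly6/uPAR family genes tested, with standard errors as whiskers. *Ly6a*, *Ly6i*, *Ly6c1* and *Ly6e* lie above 1, and the 10 other family genes lie between -0.69 and 0.82. The members were set apart with this contrast known.

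Beside the members, 16 rows of the table carried a symbol beginning with Ly6. Of these, *Ly6d*, *Ly6g2* and *Ly6g6d* were the 3 tested, 5 had no count and 8 had at most 15.01 counts in a sample. *Ly6m*, among the latter, had 0.759, 0.682 and 0.195 CPM in oe-AQP1 and 0.153, 0.164 and 0.188 CPM in oe-NC, and the groups did not overlap, although the lowest oe-AQP1 sample was close to the highest oe-NC sample. *Ly6g*, the gene of the neutrophil antigen Ly6G, had 1, 5 and 1 counts in oe-AQP1 and 0, 1 and 2 in oe-NC.

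The 4 members with separate groups lie near each other on the chromosome. An interval from *Psca* to *Gpihbp1*, chosen after the values were seen, holds 74 annotated genes, of which 38 had no count and 18 were tested. In it 8 genes, 4 of them members, rose and 1, *Lynx1*, fell, against 16.0% and 16.6% of all genes tested. The starts of the 8 lay from -74.4 to 50.8 kb of the *Ly6a* start (in chromosome order), a stretch of 125.2 kb in which 9 genes were tested. The genes that rose set the ends of this stretch, so nothing is read from the share of rises inside it or their lack outside it. *Ly6f*, *Ly6g2* and *Ly6d* lie outside it. Of the 5 genes in the stretch that are not members, all non-coding, 4 rose, against 16.0% of all genes tested. This count too depends on where the ends were set. *Gm39556*, one of the 4, had 20, 22 and 23.7 counts in oe-AQP1 and 14, 7 and 7 in oe-NC. Like *Ly6i*, it would not have been kept by the filter without its oe-AQP1 samples, so nothing is read from either count of rises. *Gm28068*, which spans *Ly6a* on the opposite strand, had 70.96, 92.87 and 95 counts in oe-AQP1 and 14, 20 and 23 in oe-NC (log2FC 2.10, SE 0.23, FDR = 7.83e-05). ENSMUSG00000131024, which lies opposite the start of *Ly6e*, had a log2FC of 1.10 (SE 0.20, FDR = 0.00227). The strand setting of the counting is not given in the sources used here, so reads of these genes and of the members they overlap cannot be told apart. ENSMUSG00000122563 (log2FC 1.00, FDR = 0.0228) missed the threshold without oe-AQP1 sample 2 or 3 or oe-NC sample 1 or 3, and *Gm39556* (log2FC 1.19, FDR = 0.0171) without oe-AQP1 sample 3 or oe-NC sample 2 or 3 and with DESeq2. The genes tested on either side of the interval, *Jrk* (log2FC -0.03, FDR = 0.793) and *Zfp41* (log2FC 0.06, FDR = 0.57), did not pass the threshold.

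**Figure D4:**
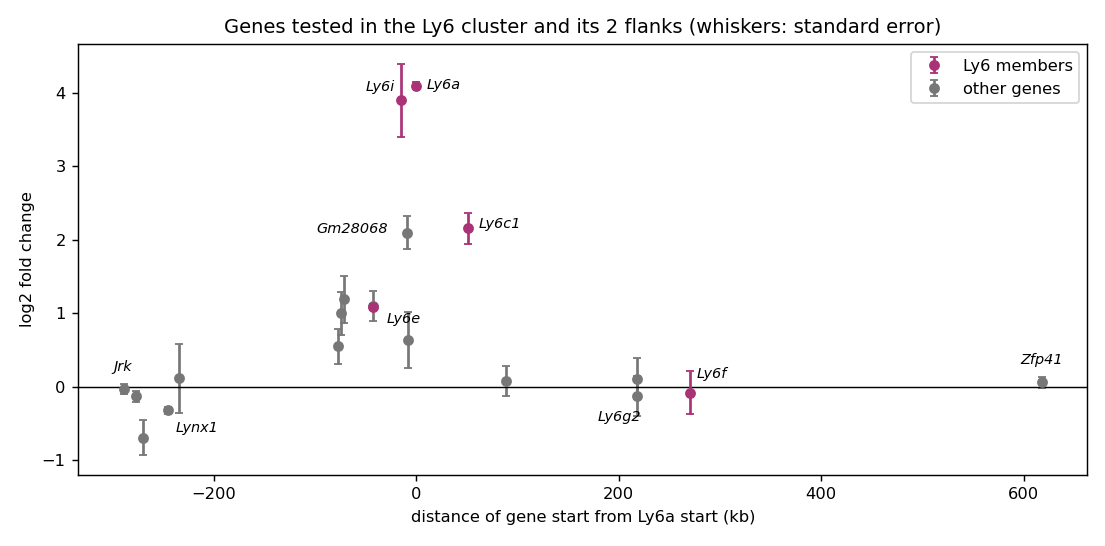
Log2FC of each gene tested in the Ly6 interval and of its 2 flanks, *Jrk* and *Zfp41*, against the distance of its start from the start of *Ly6a* in kb, with standard errors as whiskers. The genes that rose lie between -74.4 and 50.8 kb, and *Ly6f*, at 270.3 kb, lies near 0.

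The genes that build the GPI anchor, on which Ly6 proteins depend, showed no rise past the threshold. Of 33 symbols 29 were tested, of which none rose and 6 fell (limma-voom, FDR under 0.05), against 16.0% and 16.6% of all genes, with a median log2FC of -0.03 and 9 at an unadjusted p under 0.05. The share of falls was thus near that over all genes, and the share of all genes at that unadjusted p was not computed. The falls were led by *Pgap1*, which removes a fatty acid from the anchor in the endoplasmic reticulum (-0.70, SE 0.09, FDR = 0.000322), and *Pgap3*, which remodels its lipid in the Golgi (-0.65, SE 0.11, FDR = 0.00105). The others, *Gpaa1* (-0.28) and *Pigt* (-0.25) of the transamidase that attaches the anchor, *Pign* (-0.21) and *Pgap2* (-0.21), changed less. *Gpaa1* missed the threshold without oe-AQP1 sample 3, *Pign* without oe-AQP1 sample 2, and *Pgap2* in 6 alternatives. Among 6 genes for known partners of the family 3 were tested, of which 1 rose and none fell, against 16.0% and 16.6% of all genes. *Angptl4*, an inhibitor of the lipase held by the family member GPIHBP1, rose (log2FC 0.54, SE 0.05, FDR = 9.98e-06), and *Plau*, the ligand of the urokinase receptor, had a log2FC of -0.05. The lipase gene *Lpl*, with a mean of 9.4 counts a sample, did not pass (log2FC 0.82, SE 0.67), and *Gpihbp1* had no count in any sample.

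Interferons and their signalling genes, known inducers of several Ly6 genes, were compared in the same fit. Of 14 genes tested, 9 rose and 2 fell (limma-voom, FDR under 0.05), against 16.0% and 16.6% of all genes, with a median log2FC of 0.53. *Ifnb1*, the gene of interferon beta, had 264, 288 and 277 counts in oe-AQP1 and 3, 6 and 5 in oe-NC. *Ifna4*, the only interferon alpha gene listed, had 34, 23 and 23 counts in oe-AQP1 and none in oe-NC. *Ifng*, the gene of interferon gamma, had none in any sample. *Ifnb1* and *Ifna4* were kept by the filter only through their oe-AQP1 samples. The list was also chosen with earlier results of these data known, so nothing is read from the count of rises or the median. The transcription factor genes *Irf7* (log2FC 1.97, SE 0.03) and *Stat2* (1.97, SE 0.04) rose, whereas *Ifngr1*, a receptor chain for interferon gamma, fell by 0.21 (SE 0.04). The other fall, *Jak1* (-0.11), was lost in 10 of 15 alternative analyses. Whether the Ly6 values follow from these changes was not tested.

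By Pearson correlation of log2 CPM over the 6 samples, the genes most like *Ly6a* among 13576 with a mean of at least 20 counts were *Ifit3* (r = 0.99996), *Rsad2* (0.99995), *Gbp2b* (0.99994), *Igtp* and *Sp100* (both 0.99988). For *Ly6e* they were *Ifi44* (0.9999), *Itm2b* (0.99988), *Nt5c3* (0.99985), *Gm43302* (0.99984) and *Ifi202b* (0.9998). The samples fall into 2 groups, so r mostly carries the group difference, and 398 genes had an r above 0.99 with *Ly6a* and 362 with *Ly6e*. The log2FC of these genes ranged from 0.97 in *Itm2b* to 4.85 in *Ifit3*, so likeness in this measure is one of pattern and not of size.

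Ly6C and Sca-1 also mark blood and vessel cells, so markers of such cells were read in the same libraries. Of 10 monocyte and macrophage markers 5 were tested, none rose and 2, *Csf1r* (log2FC -1.51) and *Lyz2* (-0.52), fell, against 16.0% and 16.6% of all genes. The other tested markers were present and did not pass. These were *Cd68* (33.8 CPM in oe-AQP1 and 30.6 in oe-NC), *Cd14* (11.5 and 12.9) and *Spi1* (4.17 and 4.19). The groups did not overlap in *Cd68*, higher in oe-AQP1, and in *Cd14*, lower in oe-AQP1. The share of all genes with such separation was not computed. The summed level of the list was 63.5 to 66.7 CPM in oe-AQP1 and 72.4 to 76.5 CPM in oe-NC. *Adgre1* and *Tyrobp* were at 0 in all samples, and *Ptprc* had at most 3 counts. Of 7 endothelial markers 2 were tested and neither passed, at a summed 2.12 to 2.92 CPM in oe-AQP1 and 1.86 to 2.44 CPM in oe-NC, with *Kdr* and *Emcn* at 0. Lymphocyte markers summed to 0.773 to 1.26 CPM in oe-AQP1 and 1.15 to 1.60 CPM in oe-NC, and 1 of 8, *Cd79a*, was tested and did not pass.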

How the data were processed

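RNA was measured in 6 samples of RENCA cells, 3 oe-AQP1 and 3 oe-NC, sequenced paired-end from TruSeq libraries. The authors deposited expected counts per gene, unscaled, with 2 columns of group means that were not used. The submitters' processing notes name fastp, HISAT2, featureCounts, Subread and GRCm38 (mm10), whereas the paper names GRCm39, so the build of the counts is unsettled. Of the table's values 10.21% were not whole numbers, and they were rounded for testing. Positions and lengths came from GENCODE M39, in which 78168 of the 78298 gene IDs were found, and promoters from RefSeq. Coding identity was computed from pairwise alignments.

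Genes were kept with the filterByExpr function of edgeR 4.0.16 and tested with limma-voom (limma 3.58.1, R 4.3.3) after TMM scaling, as the study's methods state. P-values were adjusted over all 15522 genes, with a threshold of FDR under 0.05 and a second rule of an absolute log2FC above 1. The study's methods filtered interferon-stimulated genes, and no such filter was applied here. CPM used the scaled library sizes. The script was tested on simulated counts. Depth was 18385714.02 to 21920898.67 counts per sample, and intervals and floors cover counting error only. Replicates of 1 group differed by more than counting noise, with a chi-square per gene of 1.71 to 10.1.

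The members and gene lists were chosen with earlier results of these data known. Genes were named as follows: all members, Aqp1, other Ly6 symbols by count, each other family gene tested, up to 4 leading genes of other lists, the genes most like Ly6a and Ly6e, and the flanks of the cluster. Other genes of the cluster, the remaining anchor genes and Jak1, Ifng, Plau, Lpl and the markers were named after their values were seen. Results were recomputed with DESeq2 1.42.0, with the quasi-likelihood test of edgeR, 3 other scalings, 2 other filters, no rounding and a replicate block, and without each sample in turn.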

Additional observations from a re-analysis of the deposited data

How the results depend on the processing

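Over the 15 alternatives, the log2FC of Ly6a lay between 4.09 and 4.14, of Ly6c1 between 2.04 and 2.31, of Ly6e between 1.05 and 1.11, and of Ly6i, in the 14 that tested it, between 3.67 and 4.29. That of Ly6f lay between -0.29 and 0.12. The count of members past the threshold was 4, except with at least 10 counts in every sample, where Ly6i was dropped and it was 3. Without any filter Ly6c2 had a log2FC of 1.68 (SE 0.71). Leaving out each sample in turn gave 3601 to 6456 genes past the threshold (5050 with all samples), 3 to 5 other family genes, 4 to 7 anchor genes and 10 to 11 interferon signalling genes, the last being 8 with at least 10 counts in every sample. DESeq2 called 4147 genes. Replicate numbers did not pair the samples, since the correlations of same-numbered deviations were 0.009, -0.004 and -0.068. With the number as a replicate block 4825 genes passed, with 4 members, 4 other family genes, 6 anchor genes and 10 interferon signalling genes among them. The members, Aqp1 and the other family, cluster, anchor, partner and interferon signalling genes were followed over the alternatives. Among these, no alternative turned the direction of one past the threshold. The cell type markers and the genes most like Ly6a and Ly6e were not followed. Depth limits Ly6c2, Ly6i in oe-NC and Ly6k, and the split of reads between Ly6c1 and Ly6c2 could not be checked from the table.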
